A study of Homo sapiens with 45 samples.

Results

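The genes described are 8 extracellular matrix genes, LAMA1, LAMA5, LAMB1, LAMC1, FN1, COL4A1, COL4A2 and HAS3, taken by name from the 23045 genes of the deposited tables. Their transcripts were measured in 45 single H1 cells, a widely used human embryonic stem cell line, here at passage 40 and grown on Matrigel in mTESR1 medium and released with Accutase. Per the series' design line, the cells served to try out FRISCR, a way of recovering RNA from fixed single cells, beside direct lysis with the detergent Triton X-100. The fixed FRISCR group held 12 fixed (DAPI+) cells and the live FRISCR group 15 live (DAPI-) cells. The fixed Triton group held 7 fixed (DAPI+) cells lysed in Triton X-100 and the live Triton group 11 live (DAPI-) cells lysed the same way. The titles call the FRISCR cells PLRC and the Triton cells RLT. All groups share the cell line, the passage and the culture on a matrix that is itself rich in laminin and type IV collagen, so the proteins under the cells do not come from these transcripts alone. Since no label separates cultures, a group is treated as 1 sample, the cells are not replicates, and no p-value is given.

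Laminins are cross-shaped heterotrimers of 1 α, 1 β and 1 γ chain and form the sheet of the basement membrane that epithelial cells sit on. Type IV collagen forms the second network of the same sheet, from triple helices that usually join COL4A1 and COL4A2 chains. Fibronectin is a dimeric adhesion protein bound by integrins, and hyaluronan is a large sugar polymer spun out at the plasma membrane by hyaluronan synthases. Human pluripotent stem cells secrete laminins of their own and bind laminin and fibronectin through β1 integrins, and laminin trimers with the α5 chain are widely used to grow them without feeder cells. LAMA1 and LAMA5 encode the α1 and α5 chains, LAMB1 the β1 chain and LAMC1 the γ1 chain.

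COL4A1 and COL4A2 lie head to head on chromosome 13 and are transcribed away from each other from 1 short stretch of promoter, which is shown because the paired levels of both genes are compared below. In the RefSeq table (GRCh38.p14) their start sites are 127 bases apart, and the 126 bases between them, chr13:110307158-110307283 on the plus strand, read in the direction of COL4A2 as follows, with capitals marking a CCAAT box and a GC box.
COL4A1-COL4A2 promoter: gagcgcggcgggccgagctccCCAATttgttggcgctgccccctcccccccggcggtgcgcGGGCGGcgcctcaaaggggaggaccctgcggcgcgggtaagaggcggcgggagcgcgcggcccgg
This stretch was 80.2% G or C. Promoter windows of 300 bases, 250 before and 50 after the start, were matched for 7 of the 8 genes. All 7 windows held the GC box GGGCGG on either strand, with 6 copies for FN1, 5 for LAMA5 and 4 for LAMB1, whereas 45.0% of all 35116 windows held it. The CCAAT box was found on either strand in the windows of FN1, COL4A1 and COL4A2, against 34.6% of all windows; the windows of COL4A1 and COL4A2 share 226 bases and hold the same CCAAT box, and no window of the 7 held TATAAA, which 11.5% of all windows hold. A match of letters is a description of the window and not evidence of binding.

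Depth was similar in all groups, with 3388417 to 6594043 counts per cell. A code in the titles splits each group into 2 library sets, and a difference is called here when the summed counts per 1000000 counts (CPM) differ at least 2-fold with the same direction in both sets. All 10 pluripotency markers had counts in every group, with a median summed level of 5859 CPM in fixed FRISCR, 5935 CPM in live FRISCR, 1840 CPM in fixed Triton and 5104 CPM in live Triton cells. Of 9 endoderm markers, GATA4, GATA6, SOX17, FOXA2, TTR and HNF4A were at 0 in all 4 groups, as were COL3A1, LUM, DCN, POSTN and TWIST1 of 9 fibroblast markers. The others of these lists had counts. AFP reached 33.7 CPM in fixed Triton cells and at most 6.78 CPM in the other groups, and S100A4 stood at 14.1 to 34.2 CPM. COL1A1 and COL1A2 were highest in live FRISCR cells, at 81.8 and 122 CPM. SOX7, PDGFRA and PDGFRB reached at most 3.26, 4.55 and 4.43 CPM in any group. Summed per cell, the fibroblast markers had medians of 48.5, 188, 91.6 and 71.7 CPM in fixed FRISCR, live FRISCR, fixed Triton and live Triton cells. In the same order of groups the medians were 22.4, 10.4, 0 and 19.2 CPM for 8 trophoblast markers, mostly KRT7, 20.9, 108, 0 and 121 CPM for 6 endothelial markers, mostly KDR and TEK, and 293, 390, 134 and 410 CPM for 7 neural progenitor markers, mostly PTPRZ1. The part of these lists in the results was not tested. Fixed Triton cells stood apart: after thinning to 3000000 counts they had a median of 5950 genes. The median was 9692 in fixed FRISCR, 9813 in live FRISCR and 10392 in live Triton cells. The abundant row TVAS5 together with rows named as ribosomal RNA took a median of 32.3% of the counts in fixed Triton cells. This share was 8.68% in live Triton, 0.778% in fixed FRISCR and 0.828% in live FRISCR cells. Every comparison with fixed Triton cells below carries these differences. The comparison of live FRISCR with live Triton cells carries the difference in that share as well. Their part in the results was not tested.

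Stem cells of all groups but fixed Triton carried most of the 8 transcripts, each at a modest level. A median of 6.5 of the 8 genes had a count per fixed FRISCR cell, 7 per live FRISCR cell, 2 per fixed Triton cell and 7 per live Triton cell. The 8 genes together came to a median of 288 CPM (range 101 to 482) in fixed FRISCR, 245 CPM (163 to 730) in live FRISCR, 11.3 CPM (0 to 147) in fixed Triton and 220 CPM (169 to 528) in live Triton cells. The ranges of fixed FRISCR, live FRISCR and live Triton cells overlap over most of their length, and fixed Triton cells lie lower and overlap fixed FRISCR cells alone.

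**Figure D1:**
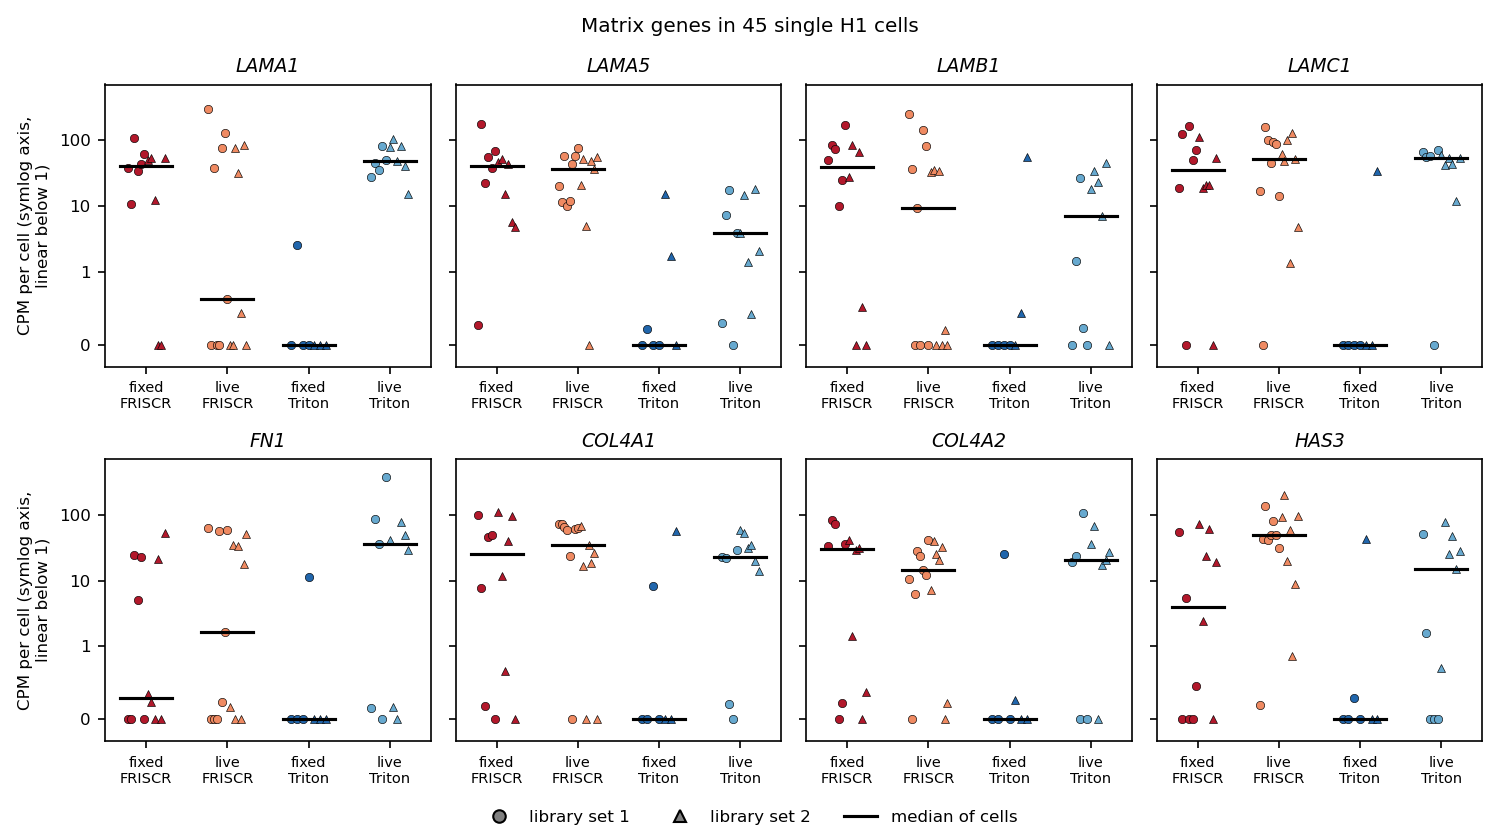
Level of each of the 8 matrix genes per cell, in CPM on a symlog axis that is linear below 1. Points are single cells (circles for library set 1, triangles for library set 2) of fixed FRISCR, live FRISCR, fixed Triton and live Triton, and bars are medians of cells. Fixed Triton cells sit at 0 for every gene except 1 to 3 cells, and live FRISCR cells split between 0 and high levels for LAMA1, LAMB1 and FN1.

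Of the laminin α chains, LAMA1 was patchy in FRISCR cells and even in live Triton cells. Its lowest, median and highest levels were 0, 40.1 and 108 CPM in fixed FRISCR cells, 0, 0.623 and 298 CPM in live FRISCR cells, 0, 0 and 2.52 CPM in fixed Triton cells, and 14.9, 48.7 and 104 CPM in live Triton cells. All 11 live Triton cells had the transcript, while 8 of 15 live FRISCR cells were below 1 CPM and 1 live FRISCR cell, replicate 1, alone held 43.7% of that group's LAMA1 counts. The summed levels of live FRISCR and live Triton cells were close all the same, at 48.1 and 54.3 CPM. The log2 ratio was -0.18, with opposite signs in library set 1 (0.59) and library set 2 (-1.26), and it was -0.90 without live FRISCR replicate 1.

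The spread of LAMA1 in live FRISCR cells was wide for a gene of its level. Its SD over cells was 1.65 times its mean, and for the 200 genes nearest in mean level this ratio had a median of 0.81 and a middle range of 0.68 to 0.96. In live Triton cells the same ratio was 0.49 for LAMA1, below the middle range of its neighbours (0.56 to 0.79). The highest cell, live FRISCR replicate 1, had the stem cell factor LIN28A at 1762 CPM but POU5F1 at 189 CPM, against 1026 CPM for POU5F1 over its group, and its pluripotency markers summed to 3635 CPM, the lowest of the group. Its trophoblast markers (125 CPM) and neural progenitor markers (748 CPM) were the highest sums of the group, and its endoderm markers summed to 0.195 CPM. The part of these differences in its LAMA1 level was not tested.

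LAMA5 showed the reverse pattern between the preparations. Its lowest, median and highest levels were 0.277, 40.7 and 173 CPM in fixed FRISCR cells, 0, 36.4 and 77.1 CPM in live FRISCR cells, 0, 0 and 15.0 CPM in fixed Triton cells, and 0, 3.82 and 18.0 CPM in live Triton cells. All but 1 live FRISCR cell and all but 1 live Triton cell had counts, but 10 of the 15 live FRISCR cells were above every live Triton cell. The summed level was 33.8 CPM in live FRISCR cells and 6.09 CPM in live Triton cells, a 5.55-fold difference (95% exact counting interval 4.97 to 6.23), with log2 ratios of 2.73 in library set 1 and 2.24 in library set 2. Leaving out each cell in turn gave 4.95-fold to 6.69-fold.

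Among all genes of at least 20 CPM in live FRISCR or live Triton cells, 6.08% were called higher in FRISCR cells and 2.87% lower. Of the 8 matrix genes, LAMA5 and HAS3 were called higher and FN1 lower, and all 8 passed the level filter. LAMA5 has a long transcript rich in G and C (11426 bases, 66.4% G or C in its longest GENCODE transcript). The fifth of genes richest in G and C had a median log2 ratio of 0.21 and the fifth with the longest transcripts 0.04, against 0.10 for all genes in this comparison. The exons of LAMA5 share 244 bases with ADRM1 on the other strand, and the kit is not described as keeping strand, so reads there cannot be told apart. ADRM1 itself stood at 178 CPM in live FRISCR cells and 209 CPM in live Triton cells, a log2 ratio of -0.24.

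The α1 and α5 chains can each join the β1 and γ1 chains. Their balance was taken per cell as the LAMA5 share of summed LAMA1 and LAMA5 TPM, a unit that corrects for transcript length. The median share was 46.1% in fixed FRISCR cells, 98.9% in live FRISCR cells, 100% in the 3 fixed Triton cells with either transcript, and 5.88% in live Triton cells. No live Triton cell exceeded 29.1%, while 9 of 15 live FRISCR cells exceeded 50% and 6 of them showed LAMA5 alone. Live Triton cells were LAMA1-dominated in every cell and live FRISCR cells were a mixture, so that the share of the group sums in live FRISCR cells was only 36.0%. Within the library sets, the median shares were 77.3% and 98.9% in live FRISCR cells, against 5.88% and 7.09% in live Triton cells.

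LAMB1, the β chain that both α chains can join, varied as widely as LAMA1 in live FRISCR cells, with an SD of 1.69 times its mean. In live Triton cells this ratio was 1.15 for LAMB1 and 0.49 for LAMA1. The lowest, median and highest levels of LAMB1 were 0, 38.6 and 170 CPM in fixed FRISCR cells, 0, 9.26 and 251 CPM in live FRISCR cells, 0, 0 and 55.7 CPM in fixed Triton cells, and 0, 7.09 and 45.5 CPM in live Triton cells. The cell that was highest for LAMA1, live FRISCR replicate 1, was also the highest for LAMB1 and held 42.6% of the group's counts. All 4 ranges overlap. The FRISCR to Triton ratio in live cells was 3.04-fold over all cells but had opposite signs in the library sets (log2 3.66 and -0.32) and was 1.87-fold without that cell, so it was not called. Exons of LAMB1 share 70 bases with DLD on the other strand.

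LAMC1, the γ chain shared by most laminins, was the steadiest of the 8 in live Triton cells. Its lowest, median and highest levels were 0, 35.4 and 166 CPM in fixed FRISCR cells, 0, 51.4 and 161 CPM in live FRISCR cells, 0, 0 and 34.0 CPM in fixed Triton cells, and 0, 53.7 and 71.6 CPM in live Triton cells. The SD over live Triton cells was 0.47 of the mean, the lowest of the 8 genes, against a median of 0.74 for its 200 neighbours in level. Between FRISCR and Triton in live cells LAMC1 differed by a log2 ratio of 0.35, with 0.36 and 0.31 in the 2 library sets, and between fixed and live FRISCR cells by -0.12.

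Transcripts of an α chain, LAMB1 and LAMC1 were not counted together in every cell. At least 1 α transcript, LAMB1 and LAMC1 were all counted in 8 of 12 fixed FRISCR cells, 8 of 15 live FRISCR cells, 0 of 7 fixed Triton cells and 7 of 11 live Triton cells. With a minimum of 5 CPM for each, the numbers were 8, 6, 0 and 6 cells in the same order. LAMB1 had counts in 10, 9, 2 and 8 cells of these groups and LAMC1 in 10, 14, 1 and 10. Of the other laminin chains, LAMB2, the β2 chain that can take the place of β1, summed to 29.1 CPM in fixed FRISCR, 50.1 CPM in live FRISCR, 0.0686 CPM in fixed Triton and 38.2 CPM in live Triton cells. LAMB2 was not part of the counts of cells above, so a cell without LAMB1 may still hold a β chain transcript. LAMC1 made up a median of 37.7% of summed LAMB1 and LAMC1 TPM in fixed FRISCR cells, 88.7% in live FRISCR cells and 71.2% in live Triton cells, with values from 0% to 100% in each of these groups.

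**Figure D2:**
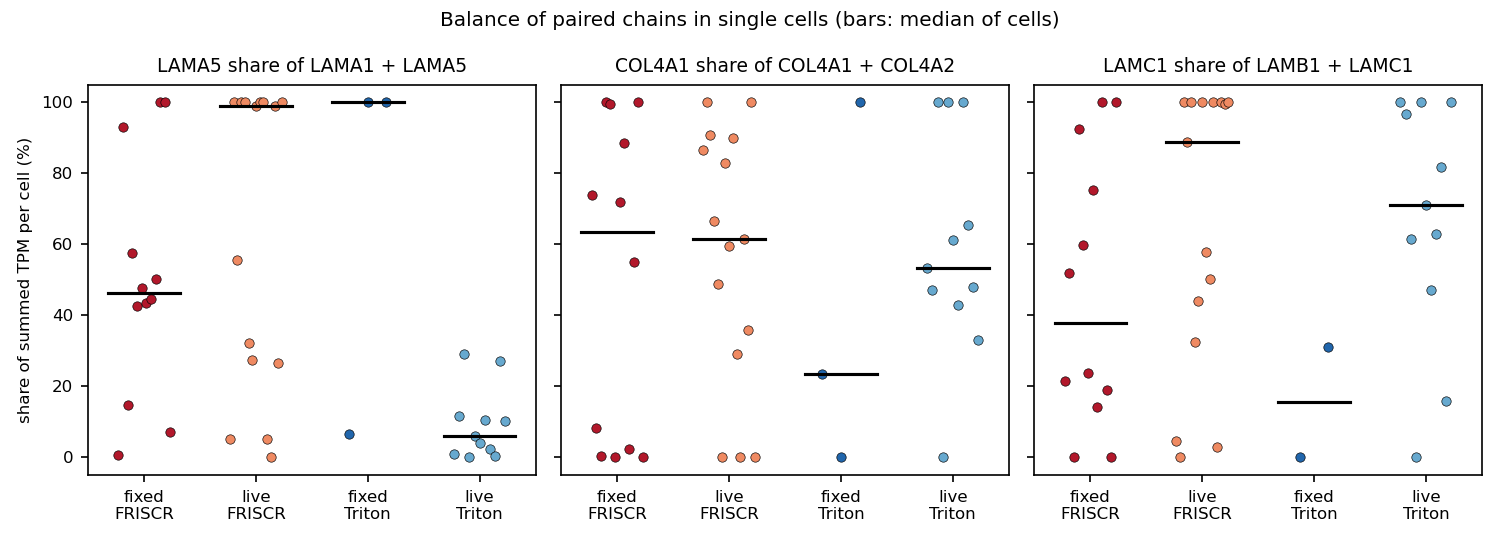
Share of each cell's summed TPM taken by LAMA5 among LAMA1 and LAMA5, by COL4A1 among COL4A1 and COL4A2, and by LAMC1 among LAMB1 and LAMC1, in percent. Points are cells with either transcript, coloured by group, and bars are medians. LAMA5 shares stay at or under 29.1% in live Triton cells and reach 100% in 6 live FRISCR cells, while the other pairs span 0% to 100% in the 3 groups other than fixed Triton.

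Fibronectin transcripts were counted well above 20 CPM in some cells and at or near 0 in others. The lowest, median and highest levels of FN1 were 0, 0.298 and 53.0 CPM in fixed FRISCR cells, 0, 1.65 and 62.7 CPM in live FRISCR cells, 0, 0 and 11.3 CPM in fixed Triton cells, and 0, 35.7 and 373 CPM in live Triton cells. Fixed FRISCR cells below 1 CPM numbered 7 of 12, live FRISCR cells below 1 CPM 7 of 15 and live Triton cells 4 of 11. All 4 ranges overlap at 0. The summed level was 21.7 CPM in live FRISCR cells and 60.8 CPM in live Triton cells, 2.81-fold lower in FRISCR cells (interval 2.65 to 2.98) in both library sets (log2 -2.04 and -0.68). That call rests on 1 cell: live Triton replicate 5 held 52.7% of the group's FN1 counts, and without it the difference was 1.45-fold.

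The 2 chains of type IV collagen differed in proportion between groups and from cell to cell. Mean levels of COL4A1 and COL4A2 were 8.93 and 6.80 TPM in fixed FRISCR cells and 6.70 and 7.93 TPM in live Triton cells. They lay further apart in live FRISCR cells, at 10.1 and 4.74 TPM, and in fixed Triton cells, at 1.67 and 0.683 TPM. COL4A1 had its lowest, median and highest levels at 0, 25.6 and 109 CPM in fixed FRISCR cells, 0, 34.4 and 72.5 CPM in live FRISCR cells, 0, 0 and 57.3 CPM in fixed Triton cells, and 0, 22.9 and 59.5 CPM in live Triton cells. COL4A2 had them at 0, 30.1 and 82.4 CPM in fixed FRISCR cells, 0, 14.7 and 41.6 CPM in live FRISCR cells, 0, 0 and 25.7 CPM in fixed Triton cells, and 0, 20.8 and 108 CPM in live Triton cells. The ranges of both genes overlap between all groups. Neither was called between fixed and live FRISCR cells (log2 -0.09 for COL4A1 and 0.66 for COL4A2), and neither was called between the preparations in live cells (log2 0.55 and -0.66).

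Both genes start from the promoter stretch shown above. COL4A1 had counts in 10 fixed FRISCR, 12 live FRISCR, 2 fixed Triton and 10 live Triton cells. In the same order, COL4A2 had them in 10, 13, 2 and 8 cells. Both transcripts were counted together in 8 of 12, 10 of 15, 1 of 7 and 7 of 11 cells of these groups. The overlap that separate detection of the 2 transcripts would give was not computed. COL4A1 made up a median of 63.3% of their summed TPM in fixed FRISCR cells, 61.4% in live FRISCR cells and 53.2% in live Triton cells, with single cells at 0% and at 100% in each of these groups. Over the 38 cells outside the fixed Triton group, with group and library set means removed, the correlation of their log2(CPM + 1) values was -0.11, and it was -0.34 in library set 1 and 0.15 in library set 2.

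HAS3, 1 of the 3 human hyaluronan synthases, had the largest difference of the 8 genes between fixed and live FRISCR cells. Its lowest, median and highest levels were 0, 3.92 and 71.4 CPM in fixed FRISCR cells, 0.195, 48.8 and 198 CPM in live FRISCR cells, 0, 0 and 42.7 CPM in fixed Triton cells, and 0, 15.2 and 78.0 CPM in live Triton cells. Every live FRISCR cell had a count, 4 fixed FRISCR cells had none, and 5 live FRISCR cells were above every fixed FRISCR cell, while the ranges overlap below that. The summed level was 20.1 CPM in fixed FRISCR cells and 63.7 CPM in live FRISCR cells, 3.16-fold lower in fixed cells (interval 2.96 to 3.38), with log2 ratios of -2.70 and -1.22 in the library sets. Leaving out single cells gave 2.56-fold to 4.48-fold.

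Between the preparations in live cells, HAS3 was higher with FRISCR, at 63.7 CPM against 24.1 CPM with Triton lysis, a 2.65-fold difference (interval 2.49 to 2.81) with log2 ratios of 2.03 and 1.16 in the library sets. The counting of HAS3 is uncertain. Its exons share 365 bases with CHTF8 on the other strand, and 8 of its 33 nonzero estimated counts were not whole numbers, against 0 to 4 for the other 7 genes. LAMA1 shares more exon bases, 1641, with the antisense gene AP002409.1, which has no row in the deposited tables, so its level cannot be given. CHTF8 stood at 85.0 CPM in fixed FRISCR cells, 92.0 CPM in live FRISCR cells, 2.16 CPM in fixed Triton cells and 54.7 CPM in live Triton cells. Its log2 ratio was -0.11 between fixed and live FRISCR cells and 0.75 between the preparations in live cells.

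Within FRISCR, 7 of the 8 genes were not called between fixed and live cells. Of all genes of at least 20 CPM, 3.03% were called higher and 7.13% lower in fixed FRISCR cells than in live FRISCR cells. None of the 8 genes was called higher and HAS3 alone was called lower, which is 1 of 8 genes against that background. The median log2 ratio was -0.11 over the 8 genes and -0.02 over all genes. FN1 came nearest to a further call, at 11.6 CPM in fixed and 21.7 CPM in live FRISCR cells (log2 -0.89, with -1.27 and -0.55 in the library sets). LAMA1, LAMA5, LAMB1, LAMC1, COL4A1 and COL4A2 lay between log2 ratios of -0.24 and 0.66, and LAMB1 alone among these kept its sign in both library sets.

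**Figure D3:**
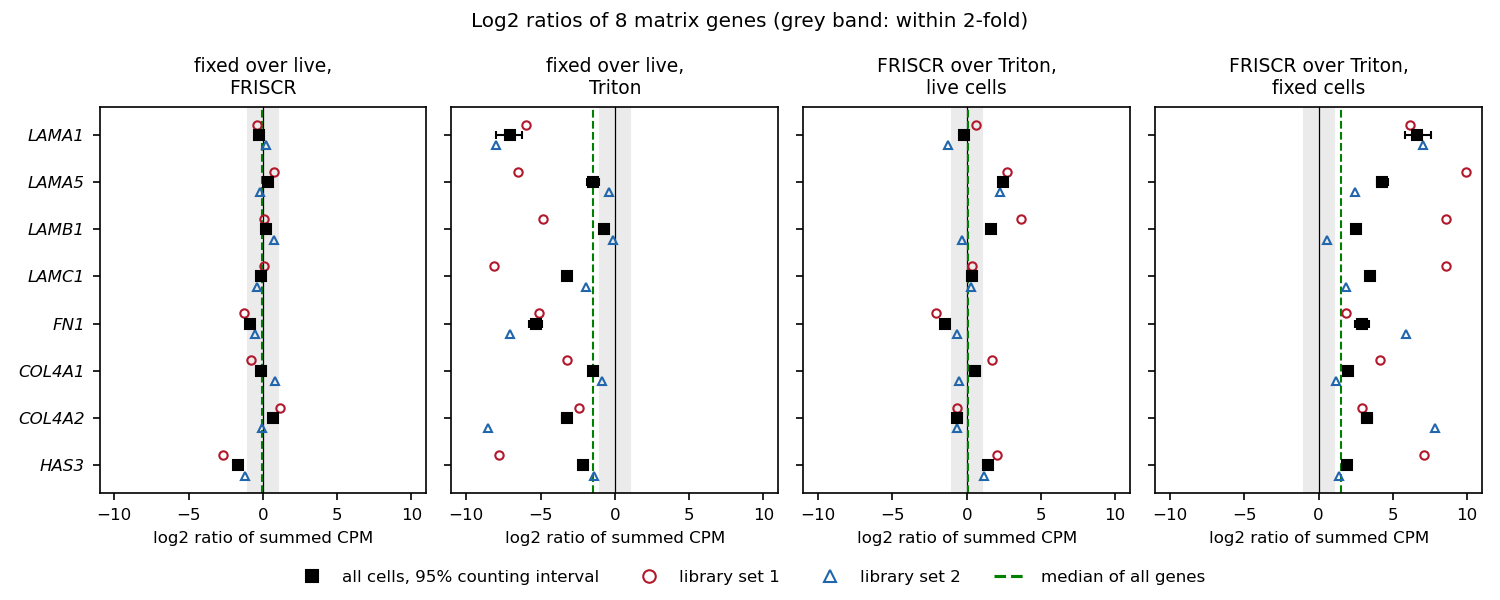
Log2 ratios of summed CPM for the 8 genes in the 4 comparisons, with black squares for all cells and their 95% counting intervals, circles for library set 1 and triangles for library set 2. The dashed line is the median of all genes and the grey band marks ratios within 2-fold; where a summed count was 0, a floor of 3 counts was used. Over all cells, HAS3 alone lies outside the band within FRISCR, while FN1 and COL4A2 also lie outside it in library set 1, and in fixed Triton cells all genes lie left of 0.

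In plain Triton lysis the same transcripts were largely missing from fixed cells. LAMA1 had 12 counts in all fixed Triton cells together and 3142 in live Triton cells, 0.412 against 54.3 CPM, 132-fold lower (interval 75.5 to 256), and it was the 1 gene of the 8 whose cell ranges did not overlap. FN1 stood at 1.54 CPM in fixed Triton cells against 60.8 CPM in live ones, 39.4-fold lower. LAMC1 had 5.11 against 48.2 CPM, 9.43-fold lower, and COL4A2 had 3.02 against 28.7 CPM, 9.49-fold lower.

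The other 4 genes fell less or were not called. HAS3 was 4.38-fold lower in fixed Triton cells, COL4A1 2.81-fold and LAMA5 2.73-fold, and LAMB1 had a log2 ratio of -0.69 and was not called. Thus 7 of the 8 genes were called lower and none higher. The background for this is high, since 56.8% of all genes of at least 20 CPM in either group were called lower and 6.86% higher, and LAMA5 and LAMB1 were below that level in both Triton groups. The median log2 ratio was -2.68 over the 8 genes and -1.50 over all genes. The median of all genes depends on the scaling and was -0.87 with TMM factors, -1.48 with mean CPM per cell and lower still with mean TPM, and the median of the 8 genes moved with it, from -2.06 to -3.01. The order of both medians differed between the library sets: it was -5.55 for the 8 genes and -2.11 for all genes in set 1, but -1.66 and -2.30 in set 2.

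What remained of the 8 transcripts in fixed Triton cells came from single cells. LAMA1 was counted in replicate 2 alone, FN1 in replicate 4 alone and LAMC1 in replicate 7 alone. Replicate 7 also held 99.2% of the LAMB1 counts and 90.0% of the COL4A1 counts, replicate 3 held 98.9% of the COL4A2 counts, and replicate 5 held 99.4% of the HAS3 counts and 86.2% of the LAMA5 counts. The ratios of these genes therefore turn on 1 cell each. Without its highest cell, the group level was 0 CPM for LAMA1, LAMC1 and FN1, 0.0808 CPM for LAMB1, 0.0388 CPM for COL4A2, 0.0393 CPM for HAS3, 0.354 CPM for LAMA5 and 1.13 CPM for COL4A1. Without replicate 5, LAMA5 was 17.2-fold lower than in live Triton cells, and without replicate 7, COL4A1 was 23.8-fold lower.

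Between the preparations in fixed cells, all 8 genes were called higher in FRISCR cells, and 57.7% of all genes of at least 20 CPM were called higher and 5.51% lower. FN1 was below 20 CPM in both groups and is outside that background. The summed levels of fixed FRISCR and fixed Triton cells were 40.7 and 0.412 CPM for LAMA1, 43.8 and 2.23 CPM for LAMA5, 48.4 and 8.44 CPM for LAMB1, and 56.8 and 5.11 CPM for LAMC1. They were 11.6 and 1.54 CPM for FN1, 36.9 and 9.57 CPM for COL4A1, 28.5 and 3.02 CPM for COL4A2, and 20.1 and 5.49 CPM for HAS3. The folds ran from 3.67 for HAS3 to 98.9 for LAMA1. For LAMA1, 10 of 12 fixed FRISCR cells were above every fixed Triton cell, and for LAMA5 8 of 12 were. This comparison shares its cells with those above and is no separate evidence.

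The difference between the fixation effects, the fixed over live log2 ratio in FRISCR minus that in Triton, was above 0 for all 8 genes. A value above 0 does not mean higher levels in fixed cells: HAS3 had -1.66 within FRISCR and -2.13 within Triton. The difference was 6.80 for LAMA1, 4.40 for FN1, 3.90 for COL4A2, 3.12 for LAMC1, 1.82 for LAMA5, 1.40 for COL4A1, 0.92 for LAMB1 and 0.47 for HAS3. The median over 8166 genes was 1.55, so 5 of the 8 genes lay above the median gene and 3 below it. Single fixed Triton cells weigh on these values. Without the fixed Triton cell highest for the gene, the difference was 7.59 for HAS3, 7.62 for LAMB1, 4.48 for COL4A1 and 4.48 for LAMA5. Leaving out a gene's highest cell raises its difference by construction. The median gene was not recomputed that way, so these values are not set against it. The library sets also differed, with 5.07 and 0.18 for HAS3 and 7.22 and 0.21 for LAMA5 in sets 1 and 2.

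Ordering the groups by mean CPM per cell, the 3 groups other than fixed Triton changed places from gene to gene, and fixed Triton cells were last for all 8 genes. Live Triton cells were first for LAMA1, FN1 and COL4A2, live FRISCR cells for LAMC1, COL4A1 and HAS3, and fixed FRISCR cells for LAMA5 and LAMB1. Most neighbours in these orders differed by less than the larger SD over cells. The exceptions were LAMA1 in fixed FRISCR over fixed Triton cells, LAMA5 in live FRISCR over live Triton cells and LAMC1 in live Triton over fixed Triton cells.

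Compared per length, HAS3 had the highest mean level of the 8 genes in live FRISCR cells. In live Triton cells FN1 was first, at 12.2 TPM against 9.94 TPM for HAS3. In live FRISCR cells the mean level was 26.1 TPM (SD 21.0) for HAS3, 12.9 TPM (SD 10.6) for LAMC1, 12.4 TPM (SD 21.6) for LAMB1, 10.1 TPM (SD 7.45) for COL4A1, 8.81 TPM (SD 15.0) for LAMA1, 4.96 TPM (SD 3.56) for LAMA5, 4.74 TPM (SD 3.79) for COL4A2 and 4.35 TPM (SD 5.27) for FN1, each over 15 cells. HAS3 has the shortest of the 8 longest transcripts in GENCODE, 4220 bases. The SD over live FRISCR cells exceeded the mean for LAMB1, LAMA1 and FN1 and was below it for the other 5 genes.

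The 8 genes did not vary together from cell to cell. Over the 38 cells outside the fixed Triton group, with the mean of each group and library set removed, Pearson's r of log2(CPM + 1) ranged from -0.21 to 0.38 over the 28 pairs, with 14 pairs above 0. The pair LAMA5 and LAMC1 alone exceeded 0.3, at 0.38, with 0.43 and 0.31 in the library sets. LAMA1 and LAMB1, which shared their highest cell, had 0.22, with 0.50 in library set 1 and -0.04 in library set 2. Just 10 of the 28 pairs had the same sign in both library sets. The cells share their libraries and depth, the values hold many zeros, and correlations this weak are no finding.

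**Figure D4:**
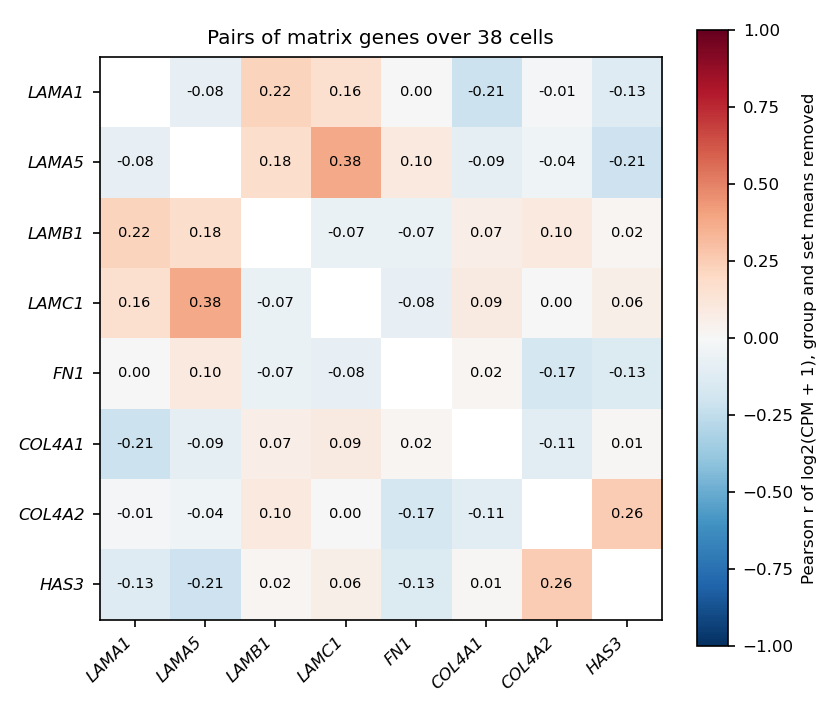
Pearson's r of log2(CPM + 1) between the 8 genes over 38 cells, with the mean of each group and library set removed. Colours run from -1 to 1 and the numbers are r; values lie between -0.21 and 0.38, the highest for LAMA5 with LAMC1.

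The wider matrix programme was described by 120 other genes in 8 lists. Within FRISCR, 15 of the 120 (12.5%) were called lower in fixed cells and 2 (1.67%) were called higher. Of the 58 that reached the 20 CPM of the background, 7 (12.1%) were called lower and 1 (1.72%) higher, against 7.13% and 3.03% of all genes of that level. Their median log2 ratio was -0.52, against -0.02 for all genes of that level. Hyaluronan genes had 3 of 10 called lower: UGDH, which makes the sugar precursor UDP-glucuronic acid, at 124 CPM in fixed and 271 CPM in live FRISCR cells, the synthase HAS2 at 0.110 and 4.19 CPM, and HYAL1, a hyaluronidase, at 0 and 7.01 CPM. The hyaluronan receptor CD44 was called higher, at 5.49 and 0.840 CPM. UGDH and HAS3 thus were both lower in fixed FRISCR cells. HAS2, HYAL1 and CD44 are low genes, below the 20 CPM of the background, and were named after their values were seen.

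Receptors for laminin, fibronectin and collagen had 4 of 20 called lower in fixed FRISCR cells and none higher. The fibronectin receptor chain ITGA5 stood at 5.58 CPM in fixed and 19.3 CPM in live FRISCR cells, the laminin receptor chain ITGA3 at 1.46 and 11.4 CPM, and dystroglycan, DAG1, at 47.1 and 107 CPM. ITGA2 was the other, at 0.548 and 1.34 CPM. DAG1 alone of these reached the 20 CPM of the background, in which 7.13% of all genes were called lower. ITGB1, the β1 subunit of most matrix integrins and the most abundant receptor here, was not called, at 214 and 262 CPM (log2 -0.29).

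The remaining lists held few calls within FRISCR. Their counts include genes below the 20 CPM of the background, in which 7.13% of all genes were called lower and 3.03% higher. None of 8 other laminin chains and none of 4 other type IV collagen chains was called. Other basement membrane components had 2 of 15 lower, HSPG2 (perlecan) at 14.5 CPM in fixed and 30.5 CPM in live FRISCR cells and NID2 at 0.201 and 8.73 CPM, and SMOC2 was higher at 25.7 and 4.94 CPM. Collagen and matrix biosynthesis had 2 of 18 lower, the lysyl hydroxylases PLOD1 (27.4 and 62.3 CPM) and PLOD2 (11.1 and 27.5 CPM), while the collagen chaperone SERPINH1 was not called (414 and 532 CPM). Interstitial and matricellular matrix had 2 of 27 lower, the collagen chains COL1A2 and COL2A1, and proteases and inhibitors 2 of 18, ADAM10 and MMP9. NID2, ITGA5, DAG1, ITGA2, PLOD1, COL2A1, ADAM10 and MMP9 were also named after their values were seen.

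In Triton lysis, 57 of the 120 genes (47.5%) were called lower in fixed cells and 1 was called higher. Of the 51 that reached 20 CPM, 34 (66.7%) were called lower, against 56.8% of all genes of that level, and their median log2 ratio was -2.40, against -1.50. Single lists are read against the same share. Matrix biosynthesis had 14 of 18 lower, with SERPINH1 at 45.6 CPM in fixed and 376 CPM in live Triton cells, and receptors had 11 of 20 lower, a share near that of all genes, with ITGB1 at 57.1 and 227 CPM. SPARC, an abundant collagen-binding protein, stood at 9.68 and 338 CPM, and PXDN, peroxidasin, which crosslinks type IV collagen, at 0.583 and 121 CPM. Others were not called in this comparison: FBLN1 (fibulin-1) stood at 122 CPM in fixed Triton against 167 CPM in live Triton cells, and ITGB5, an integrin β chain, at 62.2 against 38.5 CPM. AGRN (agrin), a basement membrane proteoglycan, was the gene called higher, at 28.4 and 12.7 CPM.

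**Figure D5:**
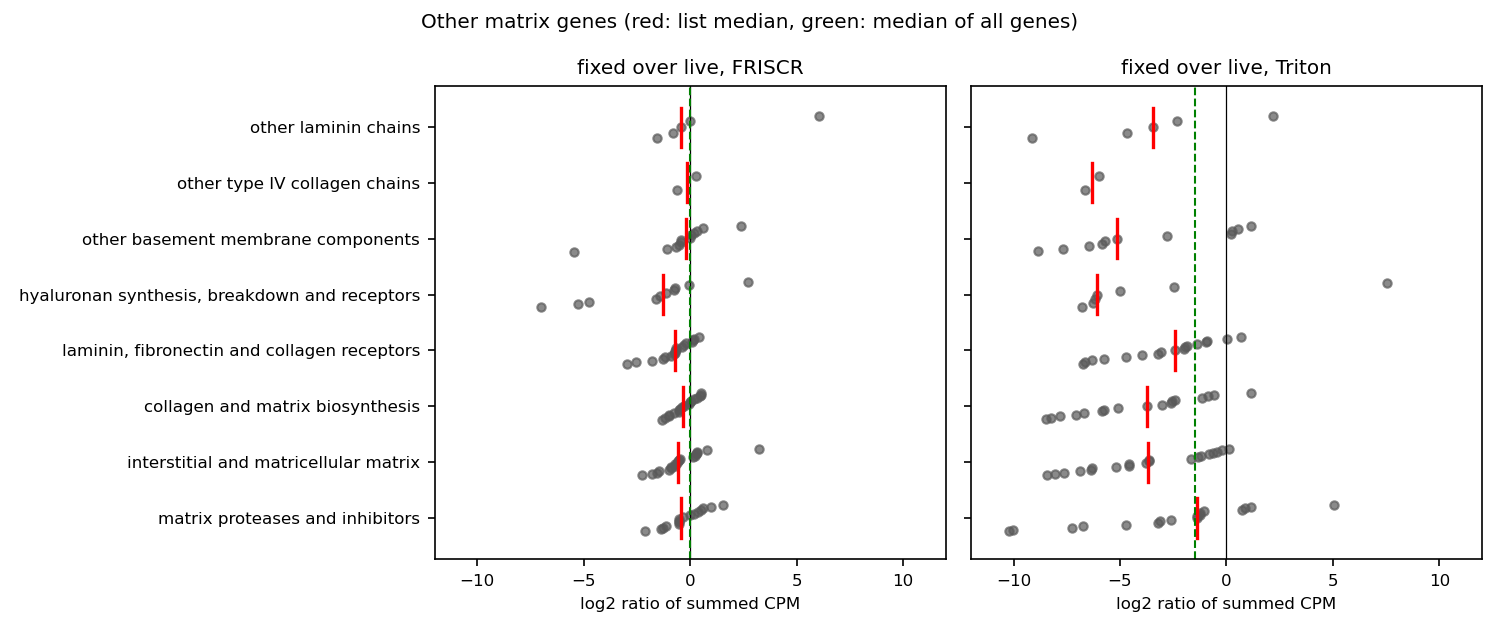
Log2 ratios of summed CPM, fixed over live, of 120 other matrix genes in 8 lists, within FRISCR and within Triton. Points are genes with a ratio, red bars are list medians and the dashed line is the median of all genes; the list medians lie between -1.26 and -0.16 within FRISCR and between -6.31 and -1.40 within Triton.

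Between the preparations in live cells, 17 of the 120 genes (14.2%) were called higher in FRISCR cells and 1 lower. Of the 57 that reached 20 CPM, 9 (15.8%) were called higher and none lower, against 6.08% and 2.87% of all genes of that level, and their median log2 ratio was 0.39, against 0.10. The interstitial and matricellular list gave 8 of its 27, among them COL5A2 at 16.6 CPM in live FRISCR and 0.536 CPM in live Triton cells and CTGF at 207 and 102 CPM. In the basement membrane, HSPG2 stood at 30.5 and 6.05 CPM, COL4A6 at 13.5 and 2.14 CPM and COL4A5 at 22.7 and 10.4 CPM. The muscle-type laminin receptor chain ITGA7 had 22.4 and 9.48 CPM, and PLOD3, which modifies collagen lysines, 46.6 and 18.2 CPM. ITGA2, a collagen receptor chain, was the gene called lower, at 1.34 and 6.31 CPM. In fixed cells, 57 of the 120 (47.5%) were called higher in FRISCR than in Triton lysis and 1 lower. Of the 53 that reached 20 CPM, 38 (71.7%) were called higher, against 57.7% of all genes of that level.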

How the data were processed

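The 45 libraries were made with Smart-Seq2 and Nextera XT, per the labels' protocols. The labels' extraction text describes cortical tissue and was not used. The authors deposited estimated counts per gene, with fractions in 40.3% of the nonzero values, and TPM values that sum to 1000000 per cell. The submitters' processing notes name GRCh37 (hg19) as the build. The aligner is not given in the sources used here, nor is the quantifier.

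Counts were rounded to whole numbers and added up within each group, and CPM is the sum over the summed total. Ratios carry exact 95% intervals from the binomial split of the counts. Without molecular identifiers, intervals cover counting error only. A sum of 0 was set to 3 counts over the group, and ratios with both sums at or under 3 were left out. Background shares used genes of at least 20 CPM in either group. Cells were thinned to 3000000 counts for genes detected.

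The 8 genes and all lists were chosen with earlier results of these data known. Genes named by rule were the members, from each list the 2 most abundant by TPM and, per comparison, the most extreme each way with at least 10 CPM, and the 3 genes most like each member by r. Transcript length and exon overlaps came from GENCODE release 29, and sequences from RefSeq promoter tables. The ratios of summed counts were checked on counts simulated for the FRISCR groups alone. The rule of the same direction in both library sets was not simulated, nor were the many zeros of fixed Triton cells. Alternatives used TMM factors from edgeR 4.0.16, median-of-ratios factors from DESeq2 1.42.0 (both in R 4.3.3), mean CPM, mean TPM, other thresholds, single library sets and single cells left out; totals without TVAS5 and 44 rRNA-named rows were added after seeing the data.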

Additional observations from a re-analysis of the deposited data

Results flagged for a closer look

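In fixed Triton cells, the highest of the 7 cells stood apart from the other 6 by Dixon's criterion (critical value 0.568) for all 8 genes. These cells had 2.52 CPM for LAMA1, 15.0 CPM for LAMA5, 55.7 CPM for LAMB1, 34.0 CPM for LAMC1, 11.3 CPM for FN1, 57.3 CPM for COL4A1, 25.7 CPM for COL4A2 and 42.7 CPM for HAS3. Chance flags about 1 in 20 groups, and groups in which most cells are at 0 meet the criterion with any single high cell. The larger groups, of 11 to 15 cells, were not tested.

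The effect of fixation on LAMB1 differed in direction between the preparations. In both library sets, fixed cells had more LAMB1 than live cells with FRISCR and less LAMB1 than live cells with Triton lysis, and the difference of the log2 ratios was 0.92. This difference was not tested. Without fixed FRISCR replicate 6 the log2 ratio within FRISCR was -0.13 in place of 0.22, so the opposite direction rests on 1 cell. Without fixed Triton replicate 7 the ratio within Triton was -7.40 in place of -0.69, which changed its size and not its direction.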

How the results depend on the processing

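No log2 ratio of a called gene changed sign under any alternative. The count of genes called lower between fixed and live FRISCR cells, 1 as reported, was 2 with median-of-ratios factors, with mean TPM, at 1.5-fold and in library set 1 alone, and 1 to 2 with single cells left out. The count called higher there, 0 as reported, was 1 in library set 1 alone. Between live FRISCR and live Triton cells, the count called higher, 2 as reported, was 1 at 3-fold and 4 in library set 1 alone, and the count called lower, 1 as reported, was 2 at 1.5-fold, 0 at 3-fold and 0 to 1 with single cells left out. Of the 260 recomputed counts of called genes, 244 stayed within 1.5 times the reported one. Single values moved more often: 371 of 944 log2 ratios fell outside their counting interval (or moved by over 0.1 where they are bounds), and 8 of 16 background shares changed by over 1.5 times. Of 64 differences of the fixation effects 24 moved, 16 of them values of 1 library set, which set the allowed range and are counted as moved. Leaving out the fixed Triton cell highest for each gene was added after seeing the data. No paired analysis was possible because the labels give no replicate numbers shared between groups and no result comes from a test. Each group is 1 sample, so differences between preparations cannot be told apart from differences between cultures or sorts. A count of 0 in a cell at this depth does not show that the transcript was absent.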

Other observations

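Genes whose level varied most like each of the 8 matrix genes from cell to cell were taken from 6829 genes of at least 20 CPM over the 38 cells outside the fixed Triton group, as a description over cells that share libraries and depth. The highest r values were 0.73 for HAS3 with TMEM208, 0.67 with SEC13 and 0.63 with RPUSD3. For LAMA5 the highest was 0.66 with LOC100133331, for LAMC1 0.65 with CPSF1, for COL4A1 0.62 with FAM104B, for LAMB1 0.62 with C21orf91, for FN1 0.60 with FEM1C, for COL4A2 0.57 with PTCD3 and for LAMA1 0.56 with PIK3C3. None of the 24 genes so named was a member of the matrix lists. The median absolute r over all genes screened was 0.13. Each value above is the highest of 6828 correlations for its gene over 38 cells, a selected extreme that this median cannot be set against. The highest r that unrelated genes would reach was not computed, so these values are no finding.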
